A study of Homo sapiens with 4 samples.

Results

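The IGF-binding proteins and the receptors of the IGF system were read in Hep3B cells, a human hepatocellular carcinoma line, in which UNC50 had been knocked down. The members are the 10 genes IGFBP1, IGFBP2, IGFBP3, IGFBP4, IGFBP5, IGFBP6, IGFBP7, IGF1R, IGF2R and INSR. They were chosen by name, as every probe other than a control whose gene name on the array was on this list. Each had 1 probe, printed in 2 spots for 8 of them and in 10 spots for IGFBP2 and IGFBP3. They are 10 of the 34809 gene names on the array. UNC50 is a Golgi membrane protein known for its part in the transport of receptors to the cell surface. The study asked which transcripts change when its level is reduced.

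Data from 4 Agilent 1-colour arrays were used, with 1 array for each plasmid. Hep3B cells had been transfected with a pLKO.1 plasmid and selected with puromycin, the control cells included, and nothing says that single clones were grown. The study's text describes this for shR-MOCK, shR-554 and shR-749. It gives fold changes for shR-467, which the sample labels also name, but does not describe its plasmid or selection. The control group was 1 array of cells carrying shR-MOCK, a mock hairpin. The knockdown group was 3 arrays, 1 each for shR-467, shR-554 and shR-749, hairpins aimed at positions 467, 554 and 749 of the UNC50 mRNA. These are different reagents against one gene, so the spread between them holds whatever belongs to a single hairpin. The spread between control cultures is not known. Hep3B cells lack functional P53 and RB and carry hepatitis B virus sequence, which all 4 arrays share.

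Insulin-like growth factors are small hormones that act on cells through IGF1R, a receptor tyrosine kinase. IGF-binding proteins are secreted proteins that hold these hormones, carry them in blood and tissue, and either keep them from the receptor or release them near it. The liver makes much of the IGF in blood, and hepatocytes secrete several of the binding proteins. IGF2R is a different kind of receptor. It has no kinase, takes up and clears IGF2, and also carries lysosomal enzymes with a mannose 6-phosphate tag from the Golgi.

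Each array probe is a DNA strand of 60 bases. The first 30 bases of 5 probes are given here, because these 5 genes were the ones that passed a 1.5-fold difference with at least 1 hairpin. They are written 5′ to 3′ in lower case, as the scanner files hold them, and no base is marked.
IGFBP7: acctccagaatattattagtctgcatggtt
IGFBP2: ggagggggaagagaaatttttatttttgaa
IGFBP1: tttctgctcttccaaagctcctgcgtctgt
IGFBP4: gaaaaatctcattcccagagtcagaggaga
INSR: attttttcaatgttttcctacaagagccaa
The array annotation places the IGFBP7 probe at chr4:57897423-57897482 on the minus strand of hg19. It places the IGFBP2 probe at chr2:217529086-217529145 on the plus strand and the IGFBP1 probe at chr7:45932966-45933025 on the plus strand. The IGFBP4 probe lies at chr17:38613308-38613367 on the plus strand and the INSR probe at chr19:7112351-7112410 on the minus strand. No member's probe shared an unbroken run of more than 16 bases, on either strand, with any of the 42395 probes of other genes. Between the members' own probes the longest shared run was 8 bases. The family's near relatives are therefore read by probes with little sequence in common. Which exon or untranslated part each probe covers, and which splice forms, was not analysed here.

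A few facts hold for all 4 arrays. A single slide held them, and they were scanned together. Between 67.6% and 73.6% of the 58717 spots on an array were well above background, by the scanner software's own test, and no spot was saturated. Signals below are in scanner units, set to the scale of the shR-MOCK array by each array's 75th percentile, and a log2 difference is that of a knockdown array from shR-MOCK. UNC50 itself had a signal of 5010 in shR-MOCK cells, 1200 in shR-467 cells, 687 in shR-554 cells and 939 in shR-749 cells. This is 24.0%, 13.7% and 18.7% of the mock level, so the knockdown was seen on each of the 3 arrays. Of 9 hepatocyte and hepatoma markers, ALB, AFP and HNF4A among them, all 9 were well above background on all 4 arrays. Of 5 fibroblast or stellate markers only LUM was, and all 3 endothelial and all 3 leukocyte markers were. In RNA from a whole culture, fewer cells of a type and less RNA per cell cannot be told apart.

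Of the 10 members, 9 passed the filter on dim probes and were compared. The filter asks for a signal well above background either with shR-MOCK or with every one of the 3 knockdown hairpins, and IGFBP5 failed it. The 9 were well above background on all 4 arrays. Averaged over the 3 hairpins, IGFBP7 and IGFBP2 were lower than shR-MOCK by at least 1.5-fold, and no member was higher by that much. Among all 25149 genes compared, 9.98% passed 1.5-fold on average, 7.69% lower and 2.29% higher, and of the genes that passed 77.1% were lower. With normexp background correction and quantile normalization together, fewer genes passed, 2.14%, and 50.8% of them were lower. Quantile normalization alone gave a lower share of 69.9%. Of the 21488 genes well above background on all 4 arrays, 5.26% passed on average, and 2.92% were lower. No member passed 1.5-fold the same way with all 3 hairpins, against 1.77% of all genes, 1.23% lower and 0.537% higher. With 9 members, 1 gene more or less moves a share by 11.1 percentage points. In limma's test across all genes, with Benjamini-Hochberg adjustment, 0 of the 9 members had an adjusted p under 0.05, and 0 were under 0.05 before adjustment. The background is 0% of all genes with adjustment and 1.51% without. UNC50, first of all genes in limma, had an adjusted p of 0.6135. An exact permutation test of 1 array against 3 cannot go below 0.25, so for each gene the values by hairpin carry the description.

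**Figure D1:**
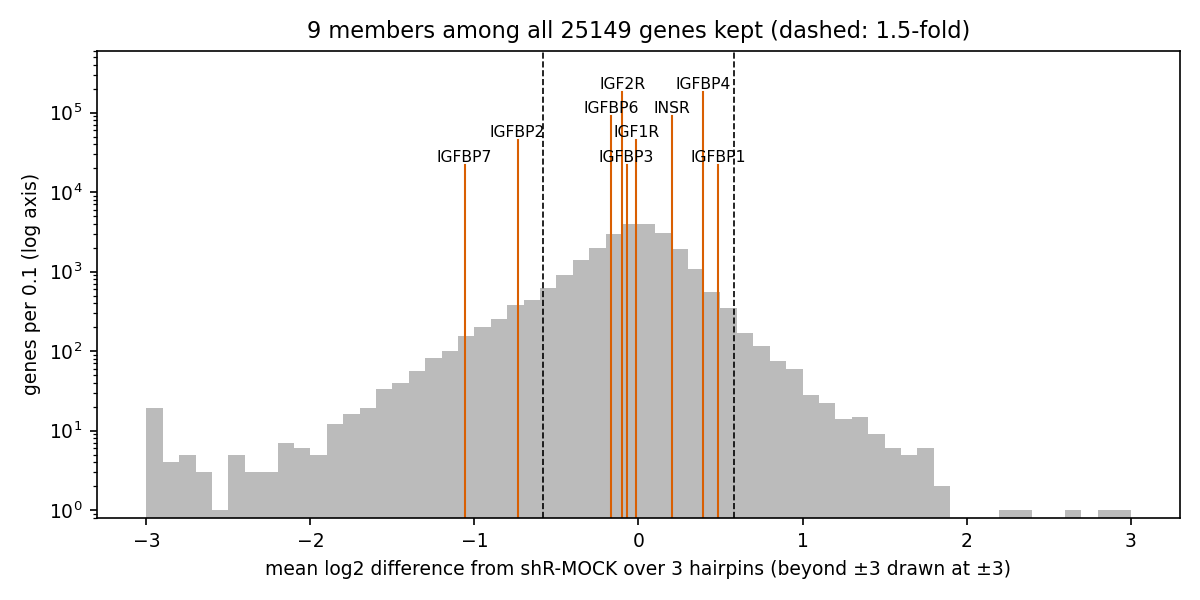
The grey bars count all 25149 genes by their mean log2 difference from shR-MOCK over 3 hairpins (x axis) on a log axis of genes per bin of 0.1, with differences beyond 3 drawn at 3, and the orange lines mark 9 members. IGFBP7, at −1.06, and IGFBP2, at −0.74, lie past the dashed line of 1.5-fold on the lower side, and the other 7 lie between the dashed lines.

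The median mean log2 difference of the 9 members was −0.07, and that of all genes compared was −0.027. The median size of the difference, whatever its sign, was 0.20 for the members and 0.17 for all genes. The hairpins differed from each other by a median SD of 0.27 among members and 0.25 among all genes. The members ranged from 0.09 for IGF2R to 1.03 for IGFBP7 in this SD. In 3 of 9 members, IGFBP1, IGFBP2 and IGF2R, all 3 hairpins had the same sign, and in all genes this share was 38.1%.

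IGFBP7 had the lowest mean of the members. It is a secreted protein related to the binding proteins, with a low affinity for IGFs, and is also a product of vascular and stromal cells. Its signal was 264 in shR-MOCK cells, 282 in shR-467 cells, 72.3 in shR-554 cells and 99.5 in shR-749 cells. The shR-467 array lay slightly above the mock array, and the arrays of shR-554 and shR-749 lay well below both, so the knockdown group as a whole did not lie apart from the mock array. The log2 differences were 0.10, −1.87 and −1.41. With shR-554 the gene was at 27.4% of the mock level, or 3.65-fold lower, and with shR-749 at 37.7%, or 2.65-fold lower. The mean was −1.06 ± 1.03 (SD, n = 3 hairpins), or 48.0% of mock. In limma its adjusted p was 0.9998 and its 95% interval −2.72 to 0.60. The limit is the disagreement between hairpins and not the spots, since the SD between its 2 spots was at most 0.0898 on any array. Without shR-467 the mean was −1.64, without shR-554 −0.66 and without shR-749 −0.89.

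UNC50 was at 24.0% of mock on the shR-467 array, where IGFBP7 was near the mock level. This was the weakest of the 3 knockdowns, as UNC50 stood at 13.7% of mock for shR-554 and at 18.7% for shR-749. The knockdown arrays ranked in the same order by UNC50 level and by IGFBP7 level. Whether IGFBP7 follows the degree of knockdown or the single hairpin was not tested. An SD between hairpins at least as large as that of IGFBP7 occurred in 3.84% of all genes, and in 1.1% of the 21488 genes well above background on all 4 arrays. The lowest IGFBP7 signal was 3.17 times the dimmest spot counted as well above background on its array. A level at least 1.5-fold lower with shR-554 and shR-749, and within 1.5-fold with shR-467, was also found in 3.57% of all genes. The share was 1.39% of those well above background on all 4 arrays. This definition was written from the values of IGFBP7, so the shares describe its pattern and do not test it. IGFBP2 met this definition as well, but not under the other spot choices described with that gene, where its difference with shR-554 was −0.35 or closer to 0. The summed signal of the endothelial markers was 252 for the mock array and 393, 276 and 278 for the knockdown arrays, in the order of their target positions. That of the fibroblast or stellate markers was 201 for the mock array and 304, 276 and 313 in the same order. Of the fibroblast or stellate markers only LUM was well above background on all 4 arrays. Whether these sums track such cells in this line was not tested. Of the genes well above background on all 4 arrays, those nearest to IGFBP7 in their 3 differences had no gene symbol in the files. The nearest, listed under its probe name A_33_P3216938, had differences of 0.22, −1.82 and −1.25, at a Euclidean distance of 0.208.

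**Figure D2:**
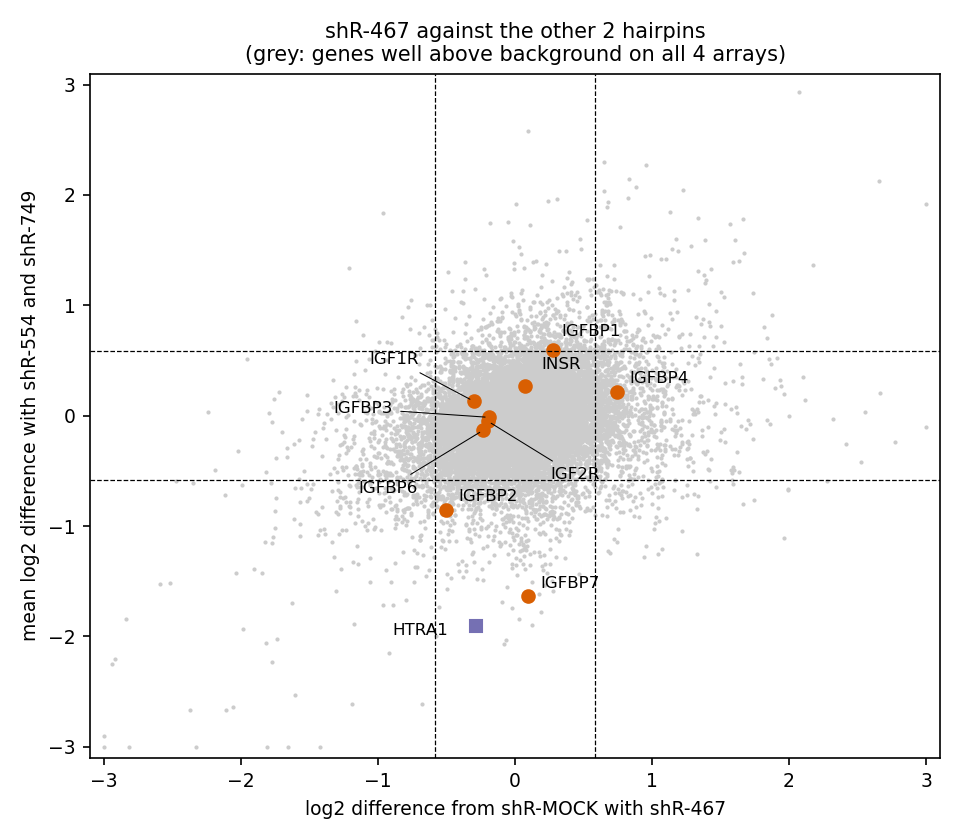
The log2 difference from shR-MOCK with shR-467 (x axis) is set against the mean log2 difference with shR-554 and shR-749 (y axis), with 9 members in orange, HTRA1 as a purple square, and genes well above background on all 4 arrays in grey, drawn at 3 where beyond it. All axes share the mock array, the dashed lines mark 1.5-fold, and IGFBP7 and HTRA1 lie low on the y axis and near 0 on the x axis.

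IGFBP2, a binding protein that hepatocytes and hepatoma cells secrete, was the other member past 1.5-fold on average. Its signal was 48.1 in shR-MOCK cells, 33.8 in shR-467 cells, 29.5 in shR-554 cells and 24.1 in shR-749 cells. All 3 knockdown arrays lay below the mock array. The log2 differences were −0.51, −0.71 and −1.0, with a mean of −0.74 ± 0.25 (SD, n = 3 hairpins). Limma gave an adjusted p of 0.9998 and a 95% interval of −2.01 to 0.53.

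The size of the IGFBP2 difference depended on which spots were read. The gene has 10 spots of the same probe, and 5 of them were well above background on all 4 arrays. On the mock array 2 spots failed that test, on the arrays of shR-467 and shR-554 3 each, and on that of shR-749 4. The scanner software had marked the 2 dim spots of the mock array as outliers, which leaves them out, and had marked none on the knockdown arrays. The spots then used had an SD of 0.132 on the log2 scale on the mock array and 0.958, 1.04 and 1.05 on the knockdown arrays. With marked spots kept, the mean difference was −0.38 ± 0.25 (SD, n = 3 hairpins). Over the 8 spots unmarked on every array it was −0.48 ± 0.17, and over the 5 spots well above background on every array −0.11 ± 0.18, with shR-467 at 0.09, shR-554 at −0.13 and shR-749 at −0.28. The last 2 of these choices were made after the values were seen. With shR-749 the probe's signal was 0.972 times the dimmest spot counted as well above background there, the lowest such ratio among the 9 members compared. The 3 genes nearest to IGFBP2 in their differences were TNFRSF11A, CCNF and CTGF, at Euclidean distances of 0.0548, 0.118 and 0.120. They were matched to its differences with marked spots left out, and not to those of the other spot choices.

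**Figure D3:**
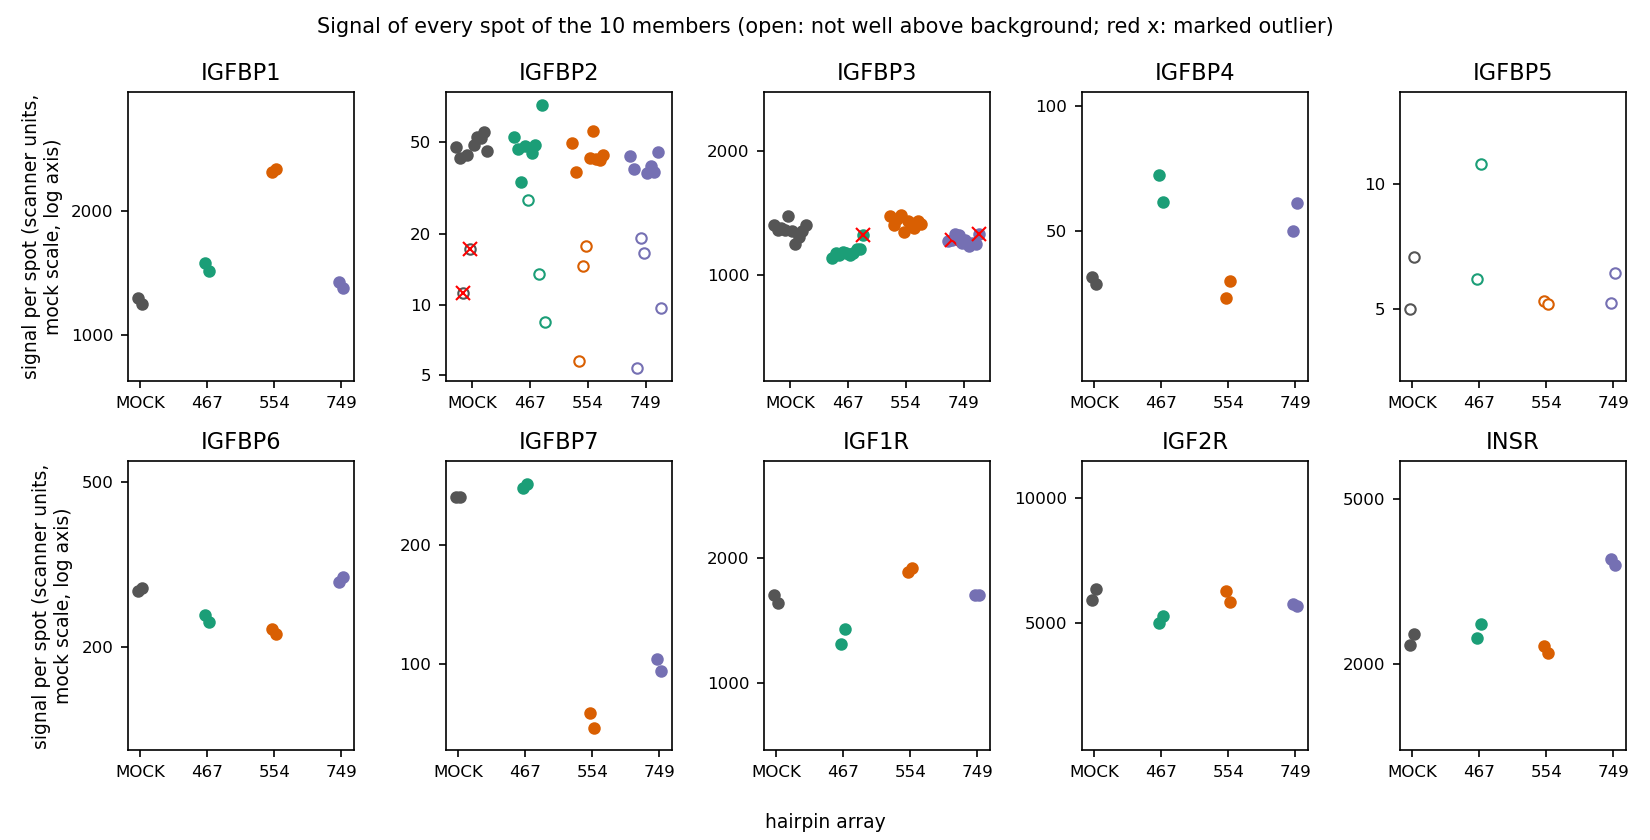
Each point is 1 spot, with its signal in scanner units on the mock array's scale (y axis, log) for the 4 arrays (x axis) in 1 panel per gene, open where not well above background and crossed where marked as an outlier. The 2 dim IGFBP2 spots are crossed on the mock array only, all IGFBP5 spots are open, and the spots of IGFBP7 lie close together on each array.

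IGFBP1 is the binding protein most tied to metabolism, as insulin represses its transcription in hepatocytes. Its signal was 1210 in shR-MOCK cells, 1470 in shR-467 cells, 2510 in shR-554 cells and 1320 in shR-749 cells. Every knockdown array lay above the mock array, and shR-554 stood apart at 2.07-fold. The log2 differences were 0.28, 1.05 and 0.13, with a mean of 0.49 ± 0.50 (SD, n = 3 hairpins). Limma gave an adjusted p of 0.9998 and a 95% interval of −0.38 to 1.36. Without shR-554 the mean was 0.20. With shR-554 alone, 4.41% of all genes were at least 1.5-fold higher and 16% at least 1.5-fold lower.

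IGFBP3 carries most of the IGF in blood, in a complex with the IGFALS protein. Its signal was 1290 in shR-MOCK cells, 1130 in shR-467 cells, 1340 in shR-554 cells and 1210 in shR-749 cells. The mock array lay inside the range of the knockdown arrays. The mean log2 difference was −0.07 ± 0.12 (SD, n = 3 hairpins), with a limma interval of −0.60 to 0.45. That interval leaves out a change of more than 1.5-fold upward and allows one just past it downward. Both readings hold only if the mock array varies like the hairpins, as limma assumes. The 10 spots gave a standard error of the difference between 0.0201 and 0.0231, which covers the array surface and not the culture. The IGFBP1 and IGFBP3 probes lie 19.6 kb apart on chromosome 7, on opposite strands. With shR-554 the former was at 207% of mock and the latter at 104%.

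IGFBP4 holds IGFs away from their receptor until proteases such as PAPPA cleave it. Its signal was 37.8 in shR-MOCK cells, 63.3 in shR-467 cells, 36 in shR-554 cells and 53.9 in shR-749 cells. The arrays of shR-467 and shR-749 lay above the mock array and that of shR-554 just below. The log2 differences were 0.74, −0.07 and 0.51, with a mean of 0.39 ± 0.42 (SD, n = 3 hairpins) and a limma interval of −0.82 to 1.60. The signals were dim, between 1.58 and 2.18 times the dimmest spot counted as well above background, and with normexp and quantile normalization together the mean was 0.17. With shR-467, 7.29% of all genes were at least 1.5-fold higher, and IGFBP4 was the 1 member among them.

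IGFBP5, which also binds the extracellular matrix, failed the scanner software's test of a signal well above background on each of the 4 arrays, and no fold is given. Its signals were 5.77 in shR-MOCK cells, 8.11 in shR-467 cells, 5.18 in shR-554 cells and 5.61 in shR-749 cells. Its probe lies 8.02 kb from that of IGFBP2 on chromosome 2, on the opposite strand.

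IGFBP6, which prefers IGF2 to IGF1, had a signal of 275 in shR-MOCK cells, 234 in shR-467 cells, 217 in shR-554 cells and 291 in shR-749 cells. The mock array lay within the range of the others. The mean log2 difference was −0.16 ± 0.22 (SD, n = 3 hairpins), with a limma interval of −0.86 to 0.54.

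**Figure D4:**
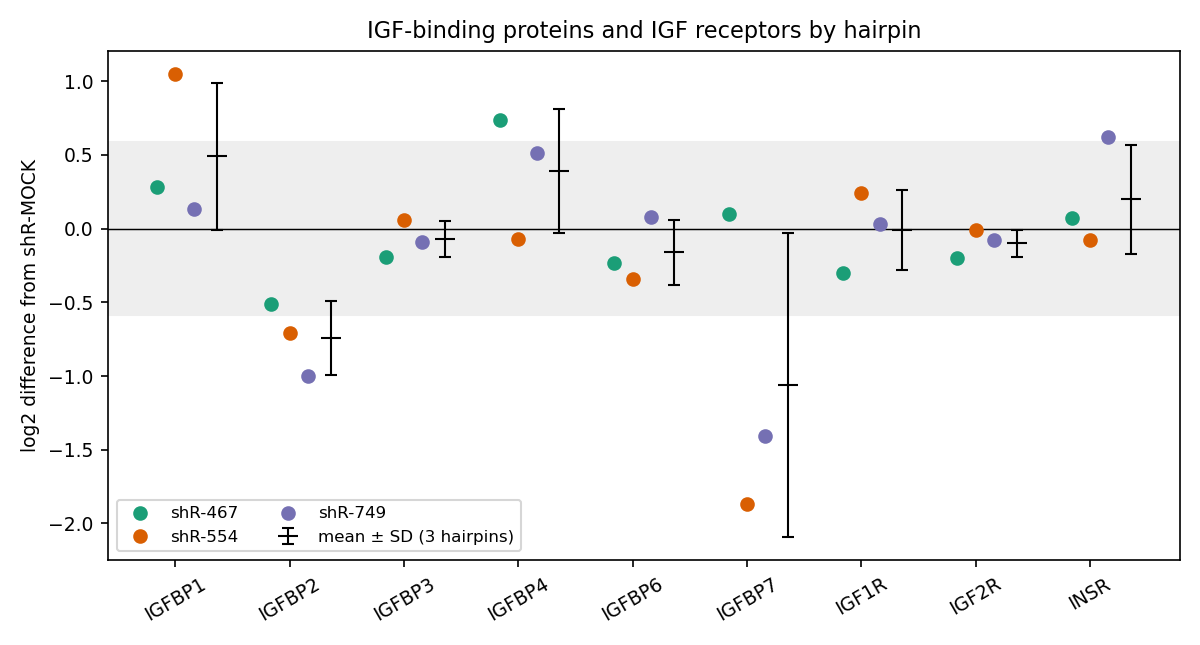
The log2 difference from shR-MOCK (y axis) is drawn for 9 members (x axis) with a coloured point for each hairpin, a black mean ± SD over 3 hairpins, and a grey band of 1.5-fold. The points of IGF2R and IGFBP3 lie close to 0, those of IGFBP7 are spread most, and IGFBP1, IGFBP4 and INSR each have a single point above the band.

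The SD between hairpins was 0.27 for IGF1R, 0.09 for IGF2R and 0.37 for INSR. IGF1R, the kinase receptor for both IGFs, had a signal of 1590 in shR-MOCK cells, 1290 in shR-467 cells, 1880 in shR-554 cells and 1630 in shR-749 cells. The mock array lay between the knockdown arrays. The log2 differences were −0.30, 0.24 and 0.03, with a mean of −0.01 ± 0.27 (SD, n = 3 hairpins). The limma interval was −0.64 to 0.61.

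IGF2R had a signal of 5850 in shR-MOCK cells, 5090 in shR-467 cells, 5790 in shR-554 cells and 5520 in shR-749 cells. The knockdown arrays were all slightly lower, by 0.20, 0.01 and 0.08 on the log2 scale. Its mean log2 difference was −0.10 ± 0.09 (SD, n = 3 hairpins), the smallest SD of the members, with a limma interval of −0.54 to 0.34. That interval lies within 1.5-fold in both directions. It holds only if the mock array varies like the hairpins, which 1 mock array cannot show. IGF2R protein travels between the Golgi and endosomes, and the arrays read its mRNA only.

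INSR, the insulin receptor, which also binds IGF2, had a signal of 2290 in shR-MOCK cells, 2400 in shR-467 cells, 2170 in shR-554 cells and 3520 in shR-749 cells. Only the shR-749 array stood apart, at 154% of mock. The log2 differences were 0.07, −0.08 and 0.62, with a mean of 0.20 ± 0.37 (SD, n = 3 hairpins), and without shR-749 the mean was 0.00. The limma interval was −0.50 to 0.91. With shR-749, 5.41% of all genes were at least 1.5-fold higher and 10.4% at least 1.5-fold lower.

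Read by hairpin, the members past 1.5-fold were not the same set. With shR-467 it was 1 of 9, IGFBP4, which was higher, against 14.1% of all genes. As shares of all genes, 7.29% were higher and 6.77% lower with that hairpin. With shR-554 it was 3 of 9, IGFBP1 higher and IGFBP2 and IGFBP7 lower, against 20.4% of all genes. With shR-749 it was also 3 of 9, INSR higher and IGFBP2 and IGFBP7 lower, against 15.8%. The 3 comparisons share the mock array.

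The 4 genes of the ligands and their serum complex had means from −0.49 to 0.28, none past 1.5-fold. IGF2, the fetal growth factor that many hepatomas express, had a signal of 218000 in shR-MOCK cells, 239000 in shR-467 cells, 243000 in shR-554 cells and 201000 in shR-749 cells. The mean log2 difference was 0.06 ± 0.15 (SD, n = 3 hairpins), with the mock array inside the range of the others. A separate IGF2 probe gave 0.03, 0.20 and −0.60, so the probes differed with shR-749. IGF1 was dim, at 35.3 on the mock array and 44.0, 34.7 and 23.9 on the knockdown arrays in the order given above, with a mean of −0.09 ± 0.44. The insulin gene INS, which is not a liver product, was also dim and had a mean of −0.49 ± 0.30, and IGFALS had a mean of 0.28 ± 0.42.

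Around the members, 7 lists of pathway genes were read, in all 69 genes that passed the filter on dim probes. None was at least 1.5-fold higher on average, against 2.29% of all genes, and 5 were lower, against 7.69% of all genes. With every hairpin 0 passed 1.5-fold the same way, against 1.77%. Limma gave 0 of 69 with an adjusted p under 0.05 and 1 with an unadjusted p under 0.05, against 1.51% of all genes. Over the 69 genes these counts are near or below the background. Of the 64 list genes well above background on all 4 arrays, 3 were lower on average by that much. This share is above the 2.92% of all genes well above background on every array. In insulin and IGF signalling, 27 of 28 genes passed the filter, and their mean log2 differences ran from −0.50 to 0.33 with a median of −0.02. FOXO1, the transcription factor that insulin restrains, had the lowest of these means at −0.50 ± 0.12 (SD, n = 3 hairpins). Its signal was 691 in shR-MOCK cells, 521 in shR-467 cells, 446 in shR-554 cells and 506 in shR-749 cells, all 3 below the mock array, with a limma adjusted p of 0.9998. IRS1 and IRS2, the docking proteins of both kinase receptors, had means of 0.04 ± 0.14 and 0.28 ± 0.45, and the kinase AKT1 had −0.03 ± 0.26. The 9 FOXO1 targets of hepatocytes that passed the filter had a median of 0.12 and ran from −0.41 to 0.34. The gluconeogenic targets G6PC and PCK1 did not pass the filter.

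The 15 genes of mannose 6-phosphate sorting with a probe, the pathway that IGF2R serves, had a median of −0.07 and ran from −0.31 to 0.35, none past 1.5-fold on average. M6PR, the smaller mannose 6-phosphate receptor, had signals of 1650 in shR-MOCK cells, 1370 in shR-467 cells, 1350 in shR-554 cells and 1640 in shR-749 cells. Its mean log2 difference was −0.19 ± 0.16 (SD, n = 3 hairpins). Of 7 proteases of the binding proteins and protease inhibitors, 5 passed the filter, with a median of −0.11, and HTRA1 was the 1 past 1.5-fold. PAPPA2 and STC1 did not pass it. PAPPA, which cleaves IGFBP4, had a mean of −0.05 ± 0.31 and was named after its value was seen. The IGF2 mRNA-binding proteins IGF2BP1, IGF2BP2 and IGF2BP3 ran from 0.01 to 0.21.

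The 5 list genes lower by at least 1.5-fold on average were all among the other genes with an IGFBP domain. This list holds proteins, most of them secreted, that share the domain with the binding proteins without being IGF carriers. Of its 13 genes, 8 passed the filter, but only 4 of these were well above background on all 4 arrays. These 4 had a median log2 difference of −0.65, and 3 of them were lower by at least 1.5-fold on average, against 2.92% of all genes well above background on every array. KAZALD1, also among these 4, had differences of −0.53, 0.36 and −0.87. The list was chosen with earlier results of these data known, so the share is a description and not a test. The other 4 of the 8 passed through the mock array, a filter that lets in genes high there. Of them, WISP2 and WISP3 give only a bound on the knockdown arrays. The 3 lower genes with a signal on every array, named here after their values were seen, were HTRA1, CTGF and CYR61. HTRA1, a secreted serine protease, had a signal of 192 in shR-MOCK cells, 157 in shR-467 cells, 51.6 in shR-554 cells and 50.6 in shR-749 cells. As for IGFBP7, the shR-467 array lay nearest to the mock array. Its mean log2 difference was −1.37 ± 0.94 (SD, n = 3 hairpins), with a limma adjusted p of 0.9998.

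CTGF and CYR61 are matricellular proteins of the CCN family. CTGF had a signal of 576 in shR-MOCK cells, 402 in shR-467 cells, 351 in shR-554 cells and 313 in shR-749 cells, and a mean log2 difference of −0.70 ± 0.18 (SD, n = 3 hairpins). All 3 knockdown arrays were lower, with a limma p of 0.0341 and an adjusted p of 0.9998. CYR61 had a signal of 2310 in shR-MOCK cells, 1210 in shR-467 cells, 1440 in shR-554 cells and 2050 in shR-749 cells, and a mean of −0.60 ± 0.39. For CYR61 the shR-749 array was the one nearest to mock.

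**Figure D5:**
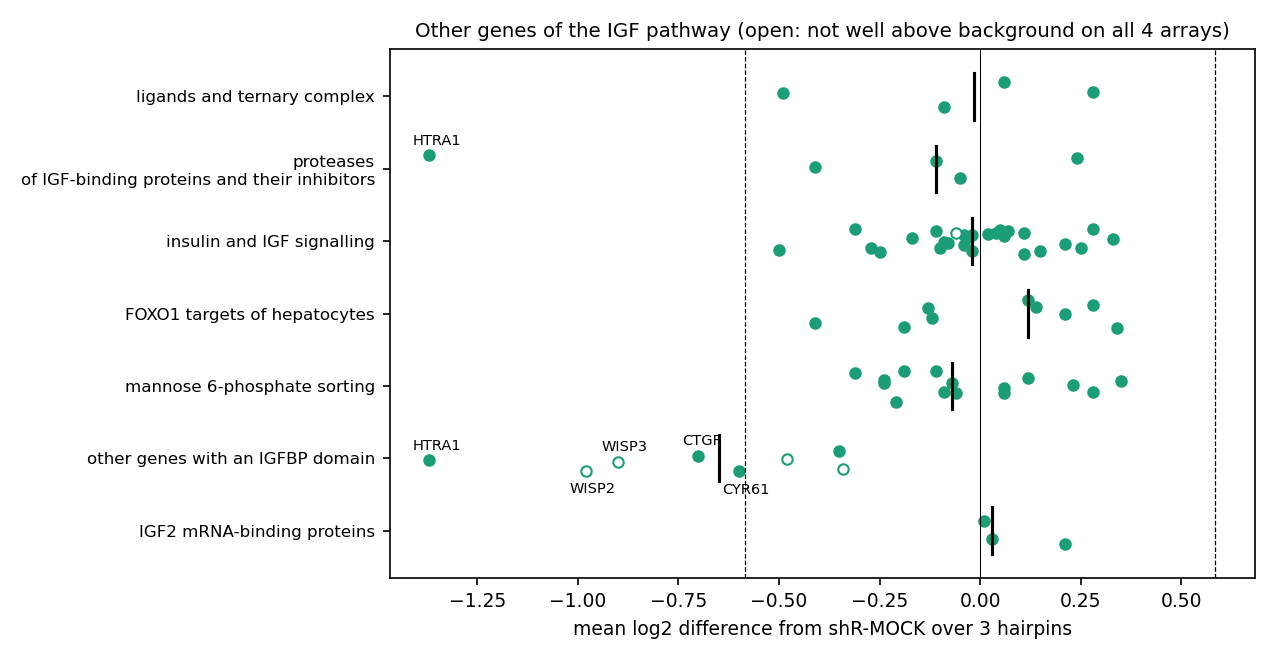
Each point is 1 gene by its mean log2 difference from shR-MOCK over 3 hairpins (x axis) in 1 of 7 lists (y axis, points shifted up or down for sight), open where not well above background on all 4 arrays, with a black bar at each list's median and dashed lines at 1.5-fold. The points past 1.5-fold are all on the lower side and belong to the list of other genes with an IGFBP domain, and HTRA1, which is in 2 lists, is drawn in both.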

How the data were processed

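Total RNA of Hep3B cells was labelled with Cy3 and hybridised to 4 Agilent 1-colour arrays. The authors deposited the output of Agilent Feature Extraction 10.7.1.1, in which each spot's processed signal is a background-subtracted intensity. A deposited table of log2 values, whose normalization is not given in the sources used here, served as an alternative. Groups came from the sample labels.

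Processed signals were put on the log2 scale and centred on the array's 75th percentile, controls left out. A probe's value is the mean of its spots without those marked as outliers. A probe counted as well above background where at least 50% of its unmarked spots did, and was kept where that held with shR-MOCK or with each of the 3 knockdown hairpins. A gene was read from its kept probe with the highest mean. The 1.5-fold average rule follows the study's methods. Differences were fitted with limma 3.58.1 in R 4.3.3 (lmFit, eBayes with trend, Benjamini-Hochberg over 25149 genes; 2 residual degrees of freedom), which assumes that the mock array varies like the hairpins. The number of arrays and the signal over background limit the precision. With 1 array for each plasmid, p-values measure the spread between hairpin arrays, in which hairpin, culture and array differences cannot be told apart.

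The members and gene lists were chosen with earlier results of these data known. Named beside the members and UNC50 were list genes past 1.5-fold with every hairpin, IGF1, IGF2, INS, IGFALS, M6PR, IRS1, IRS2, FOXO1 and AKT1, and the 3 genes nearest to each member past 1.5-fold on average. Positions are those of the array annotation (hg19). The steps were tested on simulated data: of 200 genes among 25149 changed 4-fold between knockdown and mock, 198 passed 1.5-fold and limma called 0. Alternatives were quantile and median scaling, normexp with an offset of 50 together with quantile normalization, the authors' values, other filters and thresholds, marked spots kept, other tests, and each hairpin left out.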

Additional observations from a re-analysis of the deposited data

How the results depend on the processing

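Of 175 values recomputed under an alternative, 164 moved by no more than the spread between hairpins, or for counts by at most 1.5 times. For many of them this was fixed in advance. Leaving out 1 of 3 hairpins cannot move a gene's mean by more than their SD. Each member has 1 probe, so the other filters and a mean over probes could not move its value. The count of 164 is therefore no measure of how firm the results are. The sign turned in 1 value, the mean of IGF1R, which was −0.01 and became 0.13 without shR-467. The 2 members past 1.5-fold on average became 1, IGFBP7, with normexp and quantile normalization, with signals under the dimmest spot counted as well above background set to its value, with marked spots kept, and at a 2-fold threshold. With a hairpin left out this count was 3 to 3, IGFBP1 or IGFBP4 being added to IGFBP2 and IGFBP7. The count of members past 1.5-fold the same way with every hairpin ran from 0 to 2 with a hairpin left out, and was 2, IGFBP2 and IGFBP7, without shR-467. The median over the members ran from −0.14 to −0.02. No member had a limma adjusted p under 0.05 under any alternative, and the methods' t-test gave 0 members at an unadjusted p under 0.05, 646 genes (2.57%) unadjusted and 0 adjusted. Among the 123 values of single genes, the 6 that moved were all of IGFBP2, between −0.48 and −0.11, including −0.18 with normexp and quantile normalization and −0.39 with low signals raised. The mean of IGFBP7 ran from −1.64 to −0.66 and that of UNC50 from −2.64 to −2.24.

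Over all genes, 575 were at least 1.5-fold higher on average and 1935 lower. These counts were 265 and 274 with normexp and quantile normalization, 677 and 1574 with quantile normalization alone, 617 and 919 with low signals raised, 504 and 629 when each gene had to be well above background on every array, and 1997 and 3368 with no filter. Without shR-554 the lower share was 61.9% in place of 77.1%. The signal over background limits IGFBP2, IGFBP4 and IGFBP5 most. No paired analysis was possible because the labels give no replicate numbers shared between groups, and a slide or scan block could not be fitted with 1 slide and 1 scan.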
